A study of Mus musculus with 9 samples.

Results

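Interferon response genes were followed across 9 RNA sequencing libraries of the gastrocnemius, the large calf muscle, of female mice. The 41 genes were taken by symbol from a deposited table of 56791 genes, all 41 were found, and all 41 were among the 17534 genes that passed the filter on low counts. By role they fall into 27 genes induced mainly by type I interferon, 11 large GTPases induced mainly by interferon gamma, and the transcription factor Irf1 with the chemokines Cxcl9 and Cxcl10. There were 3 groups of 3 libraries. Aged GB mice received ginkgolide B (GB) at 12 mg per kg, aged vehicle mice received saline, and young vehicle mice received saline, in each case by gavage once a day over 2 months. GB is a compound of the ginkgo tree that blocks the receptor for platelet activating factor. The titles of the aged vehicle libraries carry 23M, those of the young vehicle libraries carry 3M, and those of the aged GB libraries carry no such value. No strain, allele or batch is named, and nothing says whether the libraries of 1 group are different animals, so a p-value here measures library-to-library spread, which could be purely technical. The series design names the comparisons of aged GB with aged vehicle and of aged vehicle with young vehicle, and the aged vehicle libraries are shared by both.

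Interferons are secreted proteins that warn neighbouring cells of infection. Type I interferons bind the Ifnar1 and Ifnar2 receptor and activate a complex that holds Stat2 and Irf9 and binds a promoter motif called the interferon-stimulated response element (ISRE). Interferon gamma binds the Ifngr1 and Ifngr2 receptor, acts through a promoter motif called the gamma-activated site (GAS) and also switches on Irf1. The induced genes encode sensors of foreign nucleic acid, proteins that block viral replication, and GTPases that attack the membranes around intracellular parasites. Muscle fibres, resident macrophages and endothelial cells can all respond to interferons, and in bulk muscle a lower level can mean fewer cells of a type or less RNA per cell, which cannot be told apart here.

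Total counts were 39478427 to 44294097 in the aged GB libraries, 52068522 to 54095457 in the aged vehicle libraries and 51543383 to 61680520 in the young vehicle libraries. The 41 genes took 9332 to 11730, 11261 to 17233 and 14031 to 17758 of these counts in the same order of groups. Levels are counts relative to library size (CPM) after scaling by the trimmed mean of M values (TMM), and 1 count was worth 0.030 to 0.032 CPM in the aged GB libraries. The aged GB libraries stood apart from the rest, with 24.3 to 26.1% of counts from mitochondrially encoded genes against 13.9 to 15.3% in aged vehicle libraries, and since every GB library is a treated one, preparation and treatment cannot be told apart. Markers of muscle fibres were abundant: 10 of them, such as Acta1 and Ckm, summed to between 179434 and 204244 CPM in aged GB, between 95401 and 109926 CPM in aged vehicle and between 132406 and 144817 CPM in young vehicle libraries, although the fast troponin gene Tnnc2 was listed at only 0.57 to 1.12 CPM.

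Many promoters of the members hold the letters of the motifs through which the interferon arms act. The stretches below are shown because they carry the letters of one motif or of both, in genes of either arm. In addition, 2 of the genes with nearly the same stretch, Igtp and Irgm2, were called in opposite directions after TMM scaling. The call of Igtp was lost under other ways of scaling and that of Irgm2 without some single libraries, as given below. Windows of 250 bases before to 50 bases after the start of a gene, from RefSeq (build GRCm38.p6), were found for 31 of the 41 members. They were searched on both strands, with overlapping matches counted, for the ISRE letters GAAANNGAAA and the GAS letters TTCNNNGAA. A gene was counted once, if any of its windows held a match. The ISRE letters occurred in 21 of the 31 members with a window (67.7%), against 1079 of 27025 genes with a window (3.99%). The GAS letters occurred in 11 of 31 (35.5%), against 9.55% of all genes, and 8 members (25.8%) held both, against 0.614% of all genes. Among the GTPases with a window 9 of 9 held the ISRE letters and 6 of 9 also the GAS letters, while among the type I genes with a window 11 of 19 held the ISRE letters and 4 of 19 the GAS letters. A match describes the letters only and is not evidence that a factor binds.

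Of the IRG GTPases, which help destroy the vacuoles of intracellular parasites, 4 carry the GAS letters followed by the ISRE letters with 11 bases from the first base of one to the first base of the other. That arrangement was found in 5 of 27025 genes, and the other gene was the predicted gene Gm12185. Each stretch is written 5′ to 3′ on the strand of the gene, with the matched letters in capitals, and lies between 17 and 96 bases before the start: Igtp at chr11:58199503-58199539 (plus strand), Irgm2 at chr11:58214894-58214930 (plus strand), Tgtp1 at chr11:48992306-48992342 (minus strand) and Tgtp2 at chr11:49064265-49064301 (minus strand).
Igtp: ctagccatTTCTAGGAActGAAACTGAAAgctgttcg
Irgm2: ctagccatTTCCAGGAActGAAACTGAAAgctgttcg
Tgtp1: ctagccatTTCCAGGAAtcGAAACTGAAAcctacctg
Tgtp2: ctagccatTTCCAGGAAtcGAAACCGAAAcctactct

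Of the other GTPases, Gbp5 and Gbp7 (not printed) held both motifs. Others held the ISRE letters alone, such as the regulatory IRG GTPase Irgm1 at chr11:48871427-48871458 (minus strand) and the guanylate-binding protein gene Gbp2 at chr3:142620596-142620621 (plus strand). The motifs therefore do not divide the arms cleanly, though the GAS letters were in 6 of 9 GTPases and 4 of 19 type I genes with a window.
Irgm1: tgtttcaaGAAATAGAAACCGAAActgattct
Gbp2: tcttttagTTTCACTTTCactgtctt

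The type I genes shown next carry the ISRE letters alone, except Bst2, which carries both motifs, and Ifit2, which carries the GAS letters only. They are Isg15 at chr4:156200867-156200904 (minus strand), Ifit1 at chr19:34640777-34640821 (plus strand), Ifit3 at chr19:34583365-34583390 (plus strand), Rsad2 at chr12:26456555-26456580 (minus strand), Bst2 at chr8:71537579-71537616 (minus strand) and Ifit2 at chr19:34550445-34550469 (plus strand). The last line is Irf1, at chr11:53769916-53769940 (plus strand), with the GAS letters only.
Isg15: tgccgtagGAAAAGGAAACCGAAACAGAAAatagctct
Ifit1: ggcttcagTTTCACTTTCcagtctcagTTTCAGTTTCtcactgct
Ifit3: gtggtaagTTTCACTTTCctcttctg
Rsad2: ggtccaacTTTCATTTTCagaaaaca
Bst2: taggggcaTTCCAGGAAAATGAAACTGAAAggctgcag
Ifit2: atgggagcTTCCTGGAAgaatggat
Irf1: agcctgatTTCCCCGAAatgatgag

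The first comparison asked how muscle of aged mice given GB differs from that of aged mice given saline. On the TMM scale, which is relative, GB-treated muscle showed higher levels of the interferon regulators Irf7, Irf1 and Irf9 and of the type I effectors Ifi27l2a, Ifit1, Ifi35, Isg15, Oas2, Bst2 and Ifit3, by 1.63-fold for Irf9 up to 5.13-fold for Ifi27l2a. It showed lower levels of the antiviral genes Rsad2, Ifit2 and Parp14, at 0.55 to 0.64 of the aged vehicle level. Of the 11 GTPases 1 rose (Igtp), and 2 fell (Gbp4 and Irgm2). In all, 11 of 41 members (26.8%) were called higher, where 24.4% of all genes tested were called higher, and 5 of 41 (12.2%) were called lower, where 28.8% of all genes were. The share called higher is near that of all genes, and the share called lower is under it. Other ways of scaling changed some of these calls and are given beside the genes they touch: an offset that takes out the trend of level with gene length in each library, and scaling by library totals alone. A gene was called where edgeR's quasi-likelihood test gave an adjusted p under 0.05, with Benjamini-Hochberg adjustment over all genes tested, and every adjusted p here is of that kind unless another tool is named. The median log2 fold change was 0.19 over the 41 members and -0.05 over all genes tested. In 12 members all 3 aged GB libraries lay above all 3 aged vehicle libraries, as in 27.3% of all genes, and in 4 members they lay below, as in 32.5% of all genes.

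**Figure D1:**
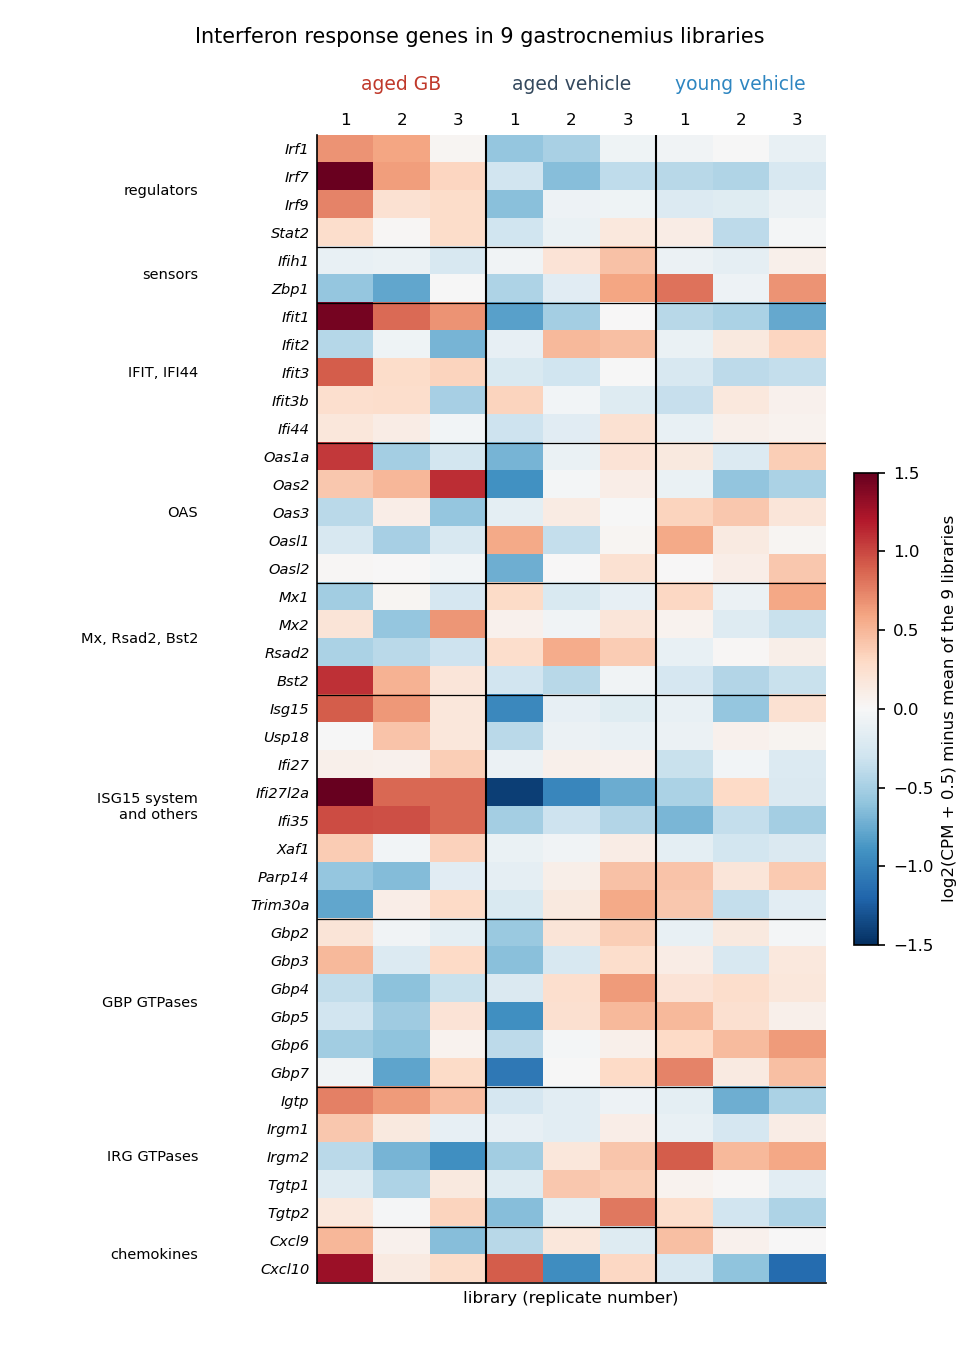
Level of each of the 41 members in each of the 9 libraries, as log2(CPM + 0.5) minus the mean of the 9 libraries, with genes in rows by role and libraries in columns by group; colours end at 1.5 on either side. Irf7, Ifit1, Ifi27l2a and Ifi35 are darkest red in the aged GB columns, and most members are palest or bluest in aged vehicle replicate 1 and reddest in replicate 3 within that group.

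Of the 4 regulators, 3 were called higher with GB, where 24.4% of all genes tested were. Irf7, the factor that amplifies type I interferon production, stood at 21.4, 11.6 and 9.31 CPM in aged GB, 5.91, 4.53 and 5.50 CPM in aged vehicle and 5.39, 5.22 and 6.12 CPM in young vehicle libraries. All 3 GB libraries exceeded every vehicle library, GB replicate 1 most of all, and the log2 fold change was 1.41 (SE 0.26, adjusted p = 0.000656). Irf1, which the gamma arm induces and which itself drives GTPase genes, had 14.0, 13.1 and 8.77 CPM in aged GB, 5.58, 5.94 and 8.16 CPM in aged vehicle and 8.21, 8.54 and 7.87 CPM in young vehicle libraries. The lowest GB library was only just above the highest vehicle library, and the log2 fold change was 0.86 (SE 0.20, adjusted p = 0.00286), with 0.30 and no call under library totals. Irf9, the DNA-binding partner of Stat2, had 16.9, 11.6 and 12.0 CPM in aged GB, 6.21, 9.27 and 9.34 CPM in aged vehicle and 8.46, 8.59 and 9.26 CPM in young vehicle libraries. The GB libraries lay above all vehicle libraries, with a log2 fold change of 0.70 (SE 0.19, adjusted p = 0.00785), and it was 0.13 and not called under library totals. Stat2 averaged 11.9 ± 1.23 CPM in aged GB and 9.87 ± 1.64 CPM in aged vehicle libraries (SD, n = 3 each), with overlap, and was not called (log2 fold change 0.27, adjusted p = 0.216).

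Neither sensor among the members was called. Ifih1, which senses double-stranded RNA, averaged 4.88 ± 0.292 CPM in aged GB and 6.38 ± 1.17 CPM in aged vehicle libraries (SD, n = 3 each; log2 fold change -0.39, adjusted p = 0.0963), and its GB libraries all lay below the aged vehicle libraries. Zbp1, which senses left-handed nucleic acid, was low, at 0.240 to 0.768 CPM in aged GB and 0.422 to 1.41 CPM in aged vehicle libraries.

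The IFIT genes sit side by side on chromosome 19 and encode proteins that bind foreign RNA, yet they did not move as a block. Ifit1 stood at 11, 7.17 and 6.30 CPM in aged GB, 1.92, 2.49 and 3.76 CPM in aged vehicle and 2.69, 2.57 and 2.0 CPM in young vehicle libraries. That is 2.99-fold higher with GB and no overlap (log2 fold change 1.58, SE 0.29, adjusted p = 0.000529). Ifit3 had 10.4, 6.54 and 6.81 CPM in aged GB, 4.47, 4.22 and 5.30 CPM in aged vehicle and 4.42, 3.94 and 4.02 CPM in young vehicle libraries. It was higher in each GB library than in any vehicle library (log2 fold change 0.76, SE 0.21, adjusted p = 0.00791), but was not called with the length offset (0.19, adjusted p = 0.458) or under library totals (0.20). Ifit2 went the other way, with 2.99, 3.99 and 2.40 CPM in aged GB, 3.84, 6.08 and 5.95 CPM in aged vehicle and 3.90, 4.72 and 5.38 CPM in young vehicle libraries. GB replicate 2 overlapped aged vehicle replicate 1, and the log2 fold change was -0.76 (SE 0.25, adjusted p = 0.0243). Ifit3b averaged 4.86 ± 1.47 CPM in aged GB and 4.88 ± 1.05 CPM in aged vehicle libraries (SD, n = 3 each), but 51.2% of the 50-base stretches of Ifit3 also occur in Ifit3b, so the counts of this pair depend on how shared reads were treated. Ifi44 was not called, at 1.09 to 1.34 CPM in aged GB and 0.809 to 1.41 CPM in aged vehicle libraries.

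Of the 5 OAS family members, whose active enzymes make the 2′-5′ linked messenger that switches on RNase L, Oas2 alone was called. It was called higher, where 24.4% of all genes tested were. Oas2 had 7.06, 7.53 and 11.8 CPM in aged GB, 2.53, 5.07 and 5.58 CPM in aged vehicle and 4.82, 3.26 and 3.58 CPM in young vehicle libraries. The GB libraries lay above all vehicle libraries, replicate 3 highest (log2 fold change 1.00, SE 0.30, adjusted p = 0.0140). Oas2 was not called under library totals (0.41) or without aged GB replicate 3. The other members had log2 fold changes of 0.59 for Oas1a, 0.11 for Oasl2, -0.92 for Oasl1 and -0.99 for Oas3. Oas3 and Oasl1 averaged under 1 CPM in every group, and 57.6% of the 50-base stretches of Oas1a also occur in Oas1g.

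Viperin and tetherin, which both act at cell membranes against viral replication and budding, moved in opposite directions. Rsad2, the gene of viperin, stood at 3.75, 3.96 and 4.25 CPM in aged GB, 6.58, 8.16 and 7.16 CPM in aged vehicle and 4.96, 5.50 and 5.77 CPM in young vehicle libraries. The 3 groups did not overlap, with GB lowest and aged vehicle highest, and the log2 fold change with GB was -0.87 (SE 0.17, adjusted p = 0.000861). Bst2, the gene of tetherin, had 29.1, 19.4 and 15.3 CPM in aged GB, 10.9, 9.93 and 12.9 CPM in aged vehicle and 11.2, 9.72 and 10.5 CPM in young vehicle libraries. Each GB library was above each vehicle library (log2 fold change 0.92, SE 0.20, adjusted p = 0.00217). With the length offset the log2 fold change of Bst2 was 0.06 (adjusted p = 0.820), and under library totals it was 0.36 and not called. The Mx GTPases Mx1 and Mx2, which trap viral nucleocapsids, averaged under 1 CPM in all groups and were not called.

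Of the 8 genes of the ISG15 system and other interferon-induced proteins, 3 were called higher and 1 lower. Over all genes tested 24.4% were called higher and 28.8% lower. Ifi27l2a, a small mitochondrial protein gene, showed the largest log2 fold change of the 41 members in the TMM-scaled fit. It stood at 47.1, 24.3 and 24.2 CPM in aged GB, 4.63, 6.38 and 7.60 CPM in aged vehicle and 9.29, 16.2 and 11.2 CPM in young vehicle libraries. Its groups did not overlap, with aged vehicle lowest, young vehicle between and GB highest, and the log2 fold change with GB was 2.36 (SE 0.32, adjusted p = 0.000137). With the length offset the log2 fold change of this short gene (463 bases) was 1.28 and still called, under those of Irf7 (1.38) and Ifit1 (1.32). Ifi35, a leucine zipper protein, had 18.9, 18.7 and 17.4 CPM in aged GB, 6.42, 7.42 and 6.75 CPM in aged vehicle and 5.63, 7.17 and 6.43 CPM in young vehicle libraries. Each GB library was above each vehicle library, and the log2 fold change was 1.42 (SE 0.14, adjusted p = 2.66e-06), or 0.85 and still called with the length offset. Isg15, a ubiquitin-like protein that is attached to other proteins, was low, with 4.07, 3.30 and 2.24 CPM in aged GB, 0.739, 1.74 and 1.64 CPM in aged vehicle and 1.74, 1.13 and 2.35 CPM in young vehicle libraries. GB exceeded aged vehicle without overlap, while GB replicate 3 lay below young vehicle replicate 3 (log2 fold change 1.22, SE 0.39, adjusted p = 0.0200). It was 0.27 with the length offset (adjusted p = 0.598) and 0.64 under library totals, called in neither. Usp18, which removes Isg15 and restrains the type I receptor, averaged 2.38 ± 0.445 CPM in aged GB and 1.66 ± 0.254 CPM in aged vehicle libraries (SD, n = 3 each) without overlap, but was not called (adjusted p = 0.134). Parp14, an ADP-ribosyltransferase, had 6.58, 6.21 and 8.89 CPM in aged GB, 9.10, 10.8 and 13.8 CPM in aged vehicle and 13.8, 11.5 and 13.4 CPM in young vehicle libraries. All GB libraries lay below all vehicle libraries (log2 fold change -0.64, SE 0.19, adjusted p = 0.0123), but with the length offset Parp14 was not called (-0.08, adjusted p = 0.764). Ifi27, Xaf1 and Trim30a were not called, with log2 fold changes of 0.16, 0.28 and -0.28, although Ifi27 was called lower with the length offset and under library totals.

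Of the 11 GTPases 1 was called higher and 2 lower, where 24.4% and 28.8% of all genes tested were, and 8 were not called. Igtp, an IRG GTPase, stood at 24.2, 22.2 and 19.6 CPM in aged GB, 11.7, 12.5 and 13.3 CPM in aged vehicle and 12.7, 8.26 and 9.97 CPM in young vehicle libraries. No vehicle library reached the GB levels (log2 fold change 0.81, SE 0.16, adjusted p = 0.000752), yet Igtp was not called with the length offset (0.34, adjusted p = 0.0890) or under library totals (0.25). Irgm2, a regulatory IRG GTPase, had 12.3, 9.90 and 8.48 CPM in aged GB, 11.3, 18.6 and 22.1 CPM in aged vehicle and 31.2, 23.1 and 24.8 CPM in young vehicle libraries. GB replicate 1 overlapped aged vehicle replicate 1, and the log2 fold change was -0.76 (SE 0.23, adjusted p = 0.0157). The start sites of Igtp and Irgm2 lie near each other on chromosome 11 and carry the nearly identical promoter stretches printed above, and the difference between their fold changes was not tested. Of the 50-base stretches of Igtp, 11.8% also occur in Irgm2. Gbp4, a guanylate-binding protein gene, had 5.98, 4.98 and 6.17 CPM in aged GB, 6.72, 9.52 and 12.6 CPM in aged vehicle and 9.17, 9.61 and 8.92 CPM in young vehicle libraries. GB lay below both vehicle groups (log2 fold change -0.75, SE 0.21, adjusted p = 0.00887), and with the length offset Gbp4 was not called (-0.32, adjusted p = 0.237). Gbp2, a guanylate-binding protein that coats pathogen vacuoles, stood at 9.69, 8.10 and 7.52 CPM in aged GB, 5.54, 9.68 and 11 CPM in aged vehicle and 7.71, 9.33 and 8.22 CPM in young vehicle libraries. The GB range fell inside the aged vehicle range, and Gbp2 was not called (log2 fold change -0.05, SE 0.23, adjusted p = 0.862). The other 7 GTPases were not called, with log2 fold changes between -0.54 for Tgtp1 and 0.40 for Gbp3. Tgtp1 and Tgtp2 cannot be read apart with confidence, since 79.4% and 85.8% of their 50-base stretches occur in the other gene, and 70.7% of those of Gbp6 occur in other genes.

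The chemokines Cxcl9 and Cxcl10, which attract activated T cells, were low and variable. Cxcl9 spanned 0.576 to 1.88 CPM in aged GB and 0.756 to 1.39 CPM in aged vehicle libraries, Cxcl10 spanned 1.14 to 3.15 CPM and 0.284 to 2.30 CPM in the same order, and neither was called.

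**Figure D2:**
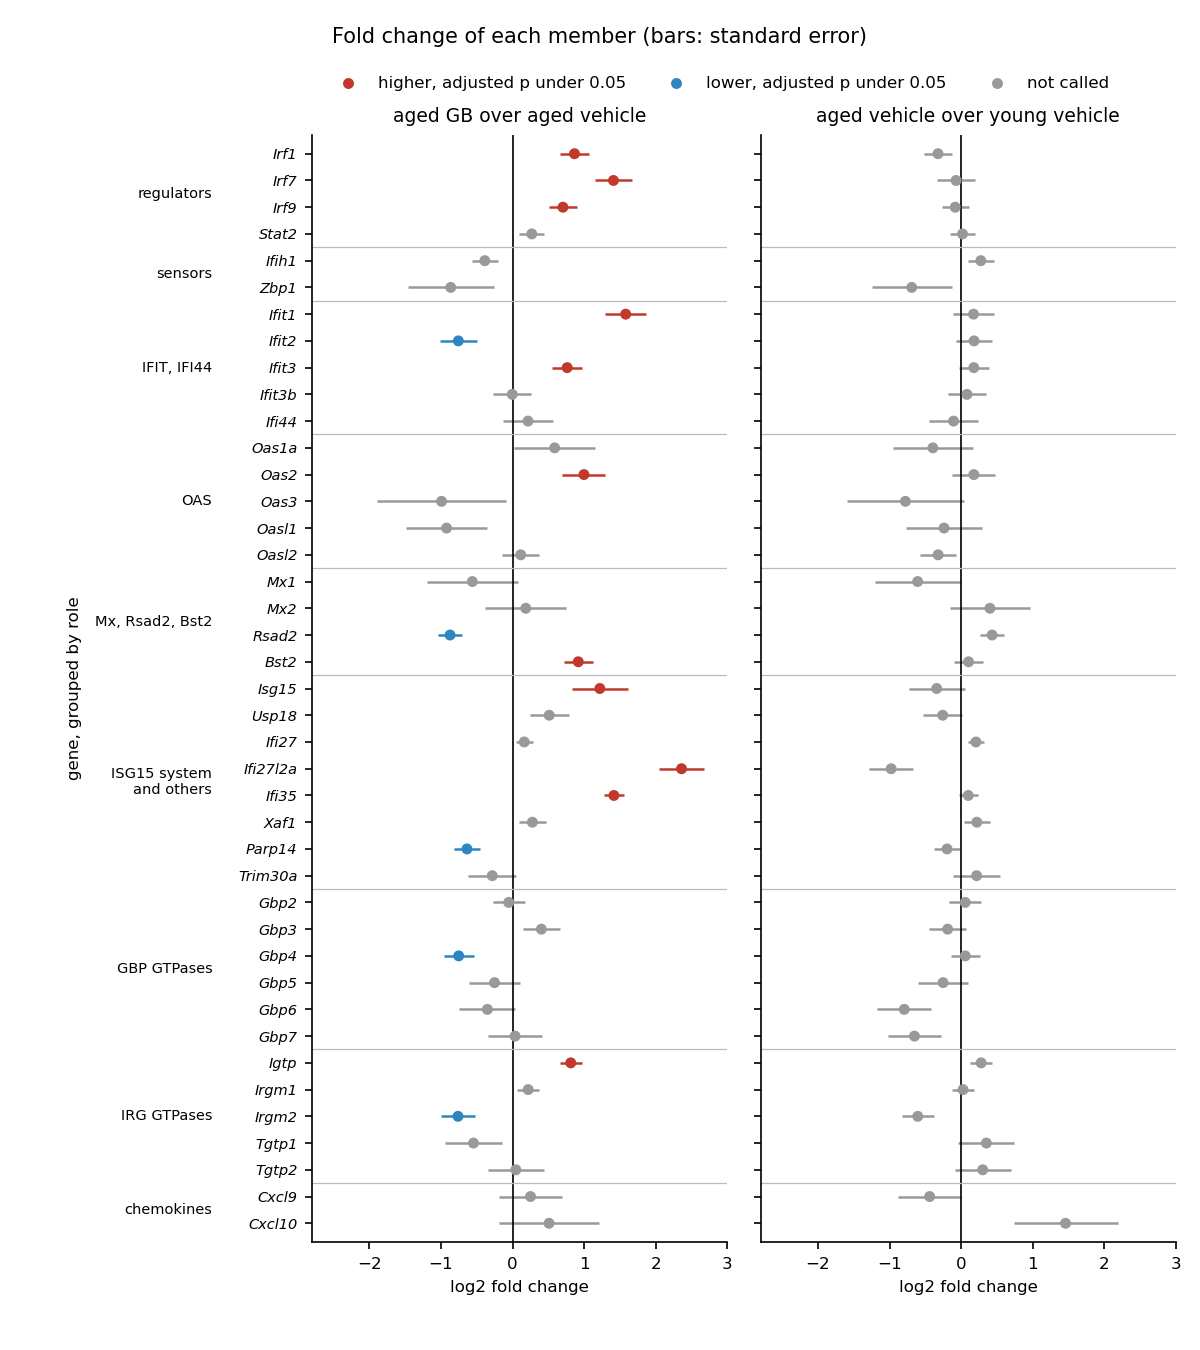
Log2 fold change of each member with its standard error, for aged GB over aged vehicle on the left and aged vehicle over young vehicle on the right, with genes grouped by role; red and blue mark adjusted p under 0.05. On the left 11 genes are called higher and 5 lower, where 24.4% and 28.8% of all genes tested were. On the right none of the 41 is called, where 4.32% of all genes were called higher and 4.28% lower.

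The calls and medians of the type I genes and the GTPases are set side by side here. With GB 9 of 27 type I genes (33.3%) were called higher and 3 (11.1%) lower, with a median log2 fold change of 0.22. Of the 11 GTPases 1 (9.09%) was called higher and 2 (18.2%) lower, with a median of -0.05, the same as the median of all genes. Over all genes tested 24.4% were called higher and 28.8% lower. The lists also differ in length: all 8 members of up to 2000 bases are type I genes, and 42.0% of all genes of that length were called higher. The length offset changed calls in both lists, as given below. The summed level of the type I genes was 196 to 255 CPM in aged GB, 126 to 164 CPM in aged vehicle and 143 to 149 CPM in young vehicle libraries, so that the GB libraries were highest without overlap on this scale. Relative to library totals alone the type I sums were 147 to 203, 138 to 191 and 162 to 167 CPM in the same order, and the groups overlapped. The summed level of the GTPases was 80.3 to 99.3 CPM, 63.2 to 109 CPM and 88.5 to 109 CPM in the same order, with overlap throughout. The difference between these lists was not tested. Expressed per kilobase of gene length, the type I gene Ifi27l2a led in aged GB at 68.9 ± 28.5 CPM per kb, followed by Bst2 at 23.5 ± 7.88 and Ifi27 at 22.3 ± 2.79 CPM per kb (SD, n = 3 each), and Bst2 and Ifi27 did not differ beyond their spread. In aged vehicle libraries Ifi27 led at 19.9 ± 1.22 CPM per kb, followed by Ifi27l2a at 13.4 ± 3.23 and Bst2 at 12.5 ± 1.71 CPM per kb. Igtp was the highest GTPase per kilobase in aged GB (10.9 ± 1.13 CPM per kb) and in aged vehicle libraries (6.19 ± 0.392 CPM per kb), whereas Irgm2 was the highest in young vehicle libraries (7.14 ± 1.15 CPM per kb).

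**Figure D3:**
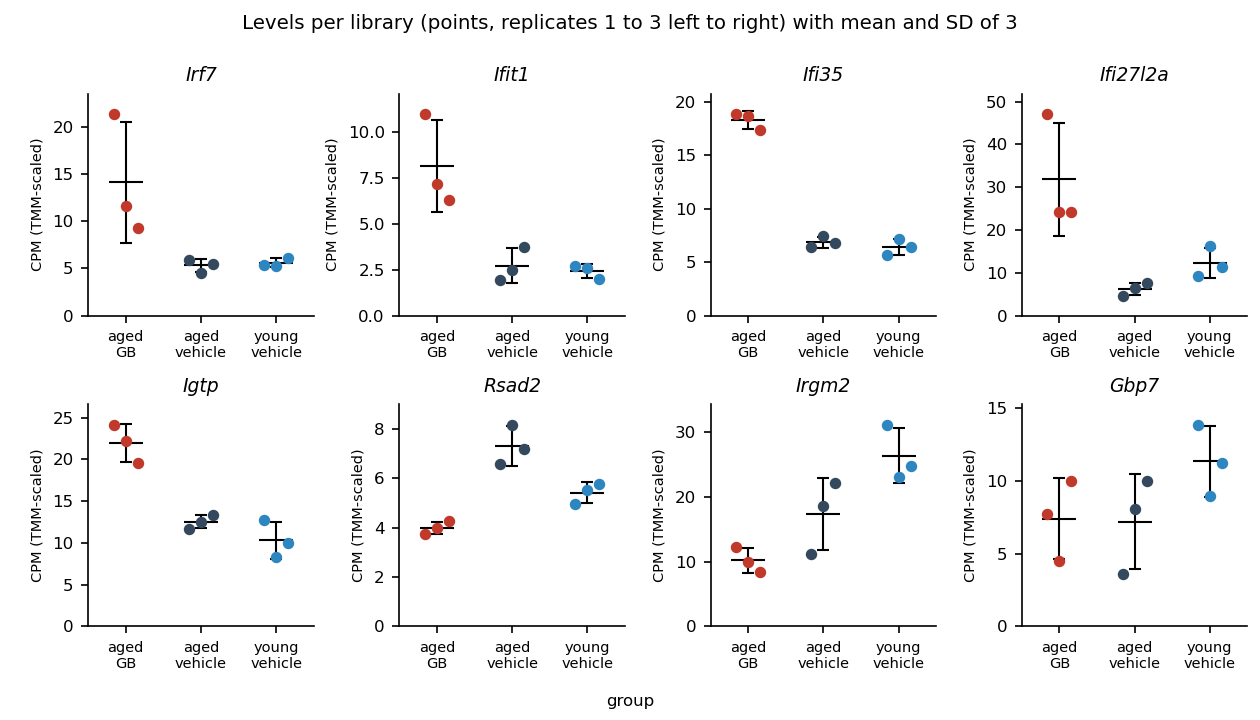
TMM-scaled CPM of 8 members in each library, with the mean and SD of 3 libraries, for aged GB, aged vehicle and young vehicle from left to right in each panel. Irf7, Ifit1, Ifi35, Ifi27l2a and Igtp are higher in every aged GB library than in any aged vehicle library, Rsad2 is lower in every aged GB library, and Irgm2 and Gbp7 have an aged vehicle library inside the aged GB range.

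Fold change with GB followed gene length among the members as it did among all genes. The Spearman correlation of log2 fold change with the deposited length was -0.475 over the 41 members and -0.345 over all genes tested, where all points share the same 6 libraries. The members called higher were 463 to 5386 bases long with a median of 2022, those called lower 3690 to 9306 bases with a median of 4335, and the 25 not called 1467 to 8165 bases with a median of 3529. Of the 8 members of up to 2000 bases 5 were called higher and none lower, where 42% of all genes of that length were called higher and 14.9% lower. Of the 7 members over 6000 bases none was called higher and 2 lower, where the shares of all genes were 8.81% and 51.2%. Among the 17 members of 2001 to 4000 bases 4 were called higher and 2 lower, against 29.9% and 17.6% of all genes. Among members of 4001 to 6000 bases, 2 of 9 were called higher and 1 lower, against 18.1% and 30.7% of all genes.

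With the length offset 9 members were called higher and 4 lower, where 22.9% of all genes were called higher and 23.8% lower. Isg15, Bst2, Ifit3, Igtp, Gbp4 and Parp14 were then no longer called. Irf7 (1.38), Ifit1 (1.32), Ifi27l2a (1.28), Oas2 (1.10), Irf9 (0.93), Irf1 (0.88) and Ifi35 (0.85) were still called higher, and Rsad2 (-0.80), Irgm2 (-0.79) and Ifit2 (-0.75) still lower. The long genes Stat2 (0.55) and Irgm1 (0.49) were added among those higher and the short gene Ifi27 (-0.49) among those lower. Scaling by library totals alone moved the all-gene median to -0.62 on the log2 scale, and then 4 members (Irf7, Ifit1, Ifi27l2a and Ifi35) were called higher and 11 lower, where 11.6% of all genes were called higher and 48.0% lower. Isg15, Oas2, Bst2, Irf1, Igtp, Irf9 and Ifit3 were no longer called there, and Ifih1, Gbp2, Oasl1, Trim30a, Tgtp1 and Ifi27 were added among those lower. The 16 genes called in the TMM-scaled fit kept the sign of their fold change under library totals and under the length offset.

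**Figure D4:**
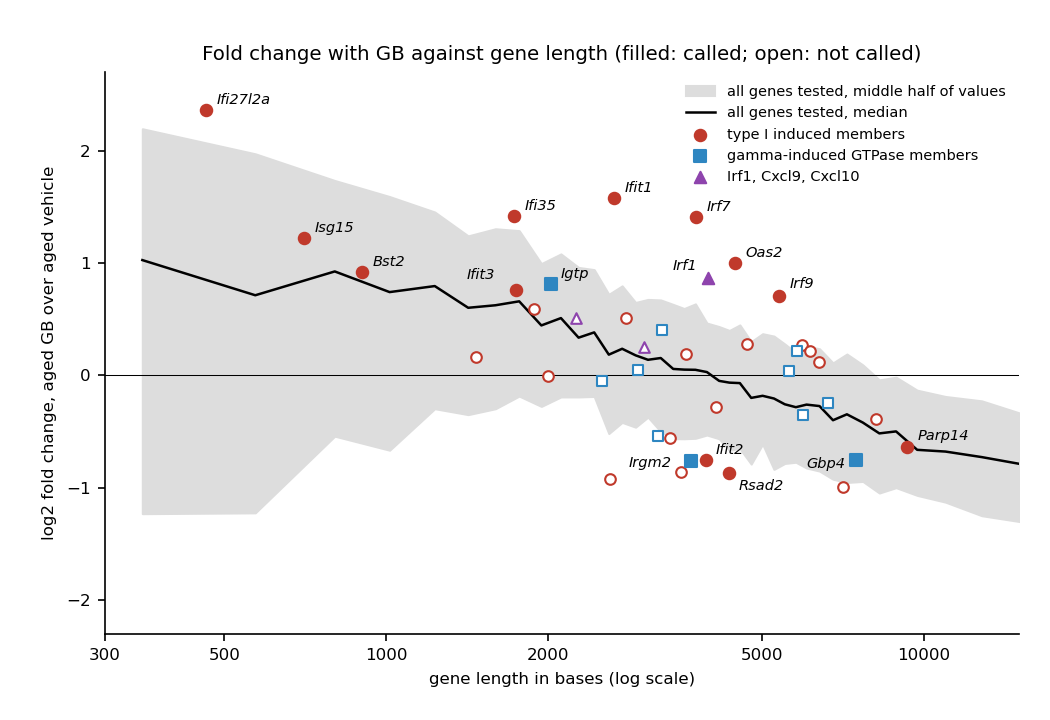
Log2 fold change of aged GB over aged vehicle against gene length in bases on a log axis, for the 41 members (filled where called, open where not) over the median and the middle range of all genes tested. The median of all genes falls with length, Isg15, Bst2, Ifit3 and Parp14 lie on or near it, and Ifi27l2a, Ifit1, Irf7, Oas2, Irf1 and Irf9 lie above it.

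The second comparison asked how muscle of aged mice differs from that of young mice, both given saline. None of the 41 genes was called by edgeR, where 4.32% of all genes were called higher and 4.28% lower. Irf7, for example, averaged 5.31 ± 0.709 CPM in aged vehicle and 5.58 ± 0.475 CPM in young vehicle libraries, and Gbp2 averaged 8.75 ± 2.86 and 8.42 ± 0.830 CPM in the same order (SD, n = 3 each). Before adjustment, the p-value of the edgeR test was below 0.05 for 3 of the 41 members, and for 3917 of the 17534 genes tested. The same cut was met by 5 members in limma-voom and by 5 in DESeq2. After adjustment limma-voom called 0 members, where 6.21% of all genes were called higher and 5.80% lower. DESeq2 called 1 member, where 7.15% of all genes were called higher and 6.54% lower. The median log2 fold change was 0.02 over the members. Aged vehicle libraries lay above all young vehicle libraries in 2 members, Rsad2 and Xaf1, where 17.5% of all genes did, and below them in 5 members, Ifi27l2a, Irgm2, Gbp6, Usp18 and Oas3, where 16.9% of all genes did. These few genes were named after their values were seen.

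The 3 members at an unadjusted p under 0.05 were Ifi27l2a, Irgm2 and Rsad2. Ifi27l2a averaged 6.20 ± 1.5 CPM in aged vehicle and 12.2 ± 3.55 CPM in young vehicle libraries (SD, n = 3 each), a log2 fold change of -0.98 (SE 0.31, adjusted p = 0.0855). DESeq2 called it (adjusted p = 0.00831), over all alternatives its adjusted p ranged from 0.00831 to 0.290, and all 3 aged libraries were below all 3 young libraries. Irgm2 averaged 17.3 ± 5.53 CPM in aged vehicle and 26.4 ± 4.25 CPM in young vehicle libraries (log2 fold change -0.61, SE 0.22, adjusted p = 0.127). Rsad2 averaged 7.30 ± 0.801 CPM in aged vehicle and 5.41 ± 0.411 CPM in young vehicle libraries (log2 fold change 0.43, SE 0.16, adjusted p = 0.134). Among the genes called with GB, log2 fold changes with age were -0.32 for Irf1, -0.08 for Irf9, 0.17 for Ifit1, 0.18 for Oas2, 0.10 for Ifi35 and 0.28 for Igtp. Cxcl10 had the largest log2 fold change with age, at 1.46 (SE 0.73, adjusted p = 0.268), with 2.30, 0.284 and 1.35 CPM in aged vehicle and 0.768, 0.486 and 0.173 CPM in young vehicle libraries, so that the groups overlapped. The Spearman correlation of log2 fold change with length in this comparison was -0.113 over the members and 0.019 over all genes.

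The aged vehicle libraries themselves differed in these genes. Replicate 1 had the lowest level of the 3 in 32 of 41 members (78.0%), where it was lowest in 38.1% of all genes tested, and replicate 3 the highest in 27 of 41 (65.9%), where it was highest in 29.8% of all genes. Of the 11 GTPases, 10 were lowest in replicate 1 and 10 highest in replicate 3, as for Gbp3 with 4.27, 5.73 and 8.39 CPM and Gbp5 with 1.90, 4.85 and 5.83 CPM. Members summed to 198, 243 and 283 CPM in these 3 libraries. Without aged vehicle replicate 3, 12 members were called higher with GB and 1 lower, where 19.63% and 25.04% of all genes were, because Gbp4, Irgm2, Parp14 and Ifit2 were no longer called and Gbp3 was added. Without aged vehicle replicate 1, 10 were called higher and 6 lower, where 20.9% and 25.8% of all genes were, with Isg15 lost and Ifih1 added. Without aged vehicle replicate 2 only the call of Ifit2 was lost. In the aged GB group replicate 1 had the highest level in 20 of 41 members, where it was highest in 37.2% of all genes, and without aged GB replicate 3 there were 10 called higher and 3 lower, where 21.9% and 27.7% of all genes were, because Oas2, Irgm2 and Ifit2 were lost. Without aged GB replicate 1 the calls of Isg15 and Ifit2 were lost, and without aged GB replicate 2 those of Isg15, Irgm2 and Parp14, with Oas3 added among those lower.

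The rest of the pathway, from ligands and receptors to other induced genes, was examined through 75 further genes, of which 65 were tested, chosen by function in 5 lists. With GB 12 of 65 rose (18.5%) and 21 fell (32.3%), against 24.4% and 28.8% of all genes. With age 4 rose (6.15%) and 3 fell (4.62%), against 4.32% and 4.28% of all genes. The ligand genes were nearly silent: Ifnb1, Ifna1, Ifna2, Ifna4, Ifnl2 and Ifnl3 had no count in any library, which allows up to 3 counts each, and Ifng had counts in aged GB replicate 1 alone (0.25 CPM). The type I receptor genes were not called in either comparison. Ifnar1 averaged 14.2 ± 1.28 CPM in aged GB, 14.4 ± 2.98 CPM in aged vehicle and 16.6 ± 0.514 CPM in young vehicle libraries, and Ifnar2 averaged 2.36 ± 1.03, 2.47 ± 0.526 and 3.62 ± 0.410 CPM in the same order (SD, n = 3 each).

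Both chains of the gamma receptor were called in both comparisons. Ifngr1, the ligand-binding chain, stood at 54.9, 61.8 and 53.4 CPM in aged GB, 44.5, 39.7 and 47.4 CPM in aged vehicle and 30.8, 25.2 and 23.5 CPM in young vehicle libraries. The 3 groups did not overlap, and the log2 fold change was 0.37 with GB (SE 0.12, adjusted p = 0.0174) and 0.73 with age (SE 0.12, adjusted p = 0.00237). Ifngr2, the signalling chain, had 55.3, 60.2 and 54.4 CPM in aged GB, 49.6, 49.4 and 44.8 CPM in aged vehicle and 62.8, 74.3 and 63.5 CPM in young vehicle libraries. Here aged vehicle was the lowest group, with log2 fold changes of 0.24 with GB (SE 0.09, adjusted p = 0.0445) and -0.48 with age (SE 0.09, adjusted p = 0.00714). With the length offset neither chain was called with GB, at adjusted p of 0.283 for Ifngr1 and 0.0752 for Ifngr2, and under library totals both log2 fold changes with GB turned negative, at -0.20 and -0.33, and Ifngr2 was then called lower. Of 19 alternatives the call with GB was lost in 4 for Ifngr1 and in 11 for Ifngr2.

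In the list of signalling factors and inhibitors 3 of 11 rose and 3 fell with GB (27.3% each). Receptors and kinases gave 2 of 7 higher (28.6%) and 1 lower (14.3%), and nucleic acid sensing 2 of 14 higher (14.3%) and 7 lower (50%). Other interferon-induced genes gave 5 of 33 higher (15.2%) and 10 lower (30.3%). Over all genes tested the shares were 24.4% higher and 28.8% lower, and no list was tested against them.

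The largest rises with GB among these genes (mean of 1 CPM or more where higher) were those of Socs1, Ifitm2 and Ikbke. Socs1, an inhibitor of the receptor kinases, averaged 1.27 ± 0.211 CPM in aged GB, 0.319 ± 0.111 CPM in aged vehicle and 1.68 ± 0.591 CPM in young vehicle libraries (SD, n = 3 each), so that it rose with GB (log2 fold change 1.99, adjusted p = 0.00187) and fell with age (-2.39, adjusted p = 0.00470). Ifitm2, which blocks viral entry, averaged 34.4 ± 4.68 CPM in aged GB and 12.3 ± 1.12 CPM in aged vehicle libraries (log2 fold change 1.49, adjusted p = 1.40e-06). Ikbke, a kinase that activates Irf3 and Irf7, had 0.826, 3.72 and 2.40 CPM in aged GB and 0.827, 0.916 and 0.953 CPM in aged vehicle libraries, with overlap (1.36, adjusted p = 0.0228), and its call was lost in 8 of 19 alternatives, at adjusted p of up to 0.154. The largest falls with GB were those of Gbp10, Irf5 and Dtx3l. Gbp10, a close relative of Gbp6, had 0, 1 and 3 counts in aged GB libraries and a mean of 1.65 ± 0.284 CPM in aged vehicle libraries (fitted log2 fold change -5.23, adjusted p = 6.75e-05), and its overlap with other copies was not measured. Irf5, a factor of macrophages, averaged 2.95 ± 1.06 CPM in aged GB, 11.1 ± 3.41 CPM in aged vehicle and 4.87 ± 1.26 CPM in young vehicle libraries, and it fell with GB (-1.91, adjusted p = 0.000176) and rose with age (1.19, adjusted p = 0.0238). The call of Irf5 with age was lost without aged vehicle replicate 3, young vehicle replicate 2 or young vehicle replicate 3, at adjusted p of up to 0.126. Dtx3l, a ubiquitin ligase, averaged 2.52 ± 0.593 CPM in aged GB and 9.17 ± 1.52 CPM in aged vehicle libraries (log2 fold change -1.86, adjusted p = 1.02e-05).

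With age the other rises were those of Ifi205 and Ifi204, DNA-binding proteins of the p200 family, and of Ifngr1, and the other falls those of Socs3 and Ifngr2. Ifi205 averaged 10.2 ± 1.56 CPM in aged vehicle and 4.48 ± 0.690 CPM in young vehicle libraries (log2 fold change 1.19, adjusted p = 0.00124). Ifi204 averaged 6.75 ± 1.91 CPM in aged vehicle and 3.57 ± 0.153 CPM in young vehicle libraries (0.92, adjusted p = 0.0162), and the call of Ifi204 was lost without any 1 of the same 3 libraries as that of Irf5, at adjusted p of up to 0.0895. Socs3, another inhibitor of cytokine signalling, averaged 3.42 ± 1.04 CPM in aged vehicle and 7.84 ± 0.381 CPM in young vehicle libraries (-1.20, adjusted p = 0.00593).

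Markers of other cell types that respond to interferons were counted beside these results. Their counts stand against all genes tested, of which 24.4% were called higher and 28.8% lower with GB, and 4.32% and 4.28% with age. With GB 1 of 12 macrophage markers rose and 4 fell, and the list summed to 188 to 208 CPM in aged GB, 218 to 250 CPM in aged vehicle and 198 to 230 CPM in young vehicle libraries. Of 10 endothelial markers 2 rose and 6 fell with GB, with sums of 408 to 495, 697 to 739 and 483 to 504 CPM in the same order of groups, and 3 rose with age. T and NK cell markers summed to 6.49 to 10.6 CPM in aged GB and 1.81 to 2.42 CPM in aged vehicle libraries. In young vehicle libraries these markers summed to 15.8 CPM in replicate 1, 2.57 CPM in replicate 2 and 1.58 CPM in replicate 3. Of the 6 of 14 that were tested 1 rose, Cd3e, a chain of the T cell receptor complex, with 5.91, 4.32 and 5.69 CPM in aged GB and 0.721, 1.47 and 1.03 CPM in aged vehicle libraries, while Gzmb and Prf1 were at 0 in all GB libraries. Cd3e alone made up most of the sum in each aged GB library. Within the aged GB group its partner chain Cd3d had counts in replicate 2 alone, and Cd3g had none in replicate 3. Plasmacytoid dendritic cell markers summed to 50.4 to 68.4 CPM in aged GB and 72.4 to 76.6 CPM in aged vehicle libraries, with 1 of 7 tested markers higher (Il3ra) and 2 lower (Tcf4 and Ccr9), and most of that sum was Tcf4, a factor of many cell types, at 40.1 to 55.4 and 64.2 to 67.0 CPM in the same order. Neutrophil markers summed to at most 4.90 CPM in any library, and Ly6g was at 0 in all 9. B cell markers summed to 1.08 to 3.15 CPM in 8 libraries and to 93.1 CPM in young vehicle replicate 1. Without that library no member was called with age, where 3.88% of all genes were called higher and 4.10% lower. With GB 11 members were then called higher and 5 lower, where 23.6% and 28.6% of all genes were. The part of these cell types in the results on the 41 members was not tested.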

How the data were processed

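Per the labels' protocols, total RNA of gastrocnemius muscle was the input of an mRNA library kit. The authors deposited raw counts per gene as whole numbers, with a gene length column. Per the submitters' processing notes the tools were FastQC, HISAT2, SAMtools and DESeq2, and the genome builds named are GRCm39 and mm10. How reads were assigned to genes, by which annotation and with or without strand, is not given in the sources used here, so genes that overlap others and near-identical copies have uncertain values.

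Groups came from the sample titles. The test was the edgeR quasi-likelihood test (version 4.0.16, R 4.3.3) on the deposited counts: genes were kept by filterByExpr (minimum count 10, minimum total 15), libraries were scaled by TMM, and 1 robust model with a mean per group covered all 9 libraries. Tests were two-sided, with Benjamini-Hochberg adjustment over the 17534 genes. The standard error (SE) is the size of a log2 fold change over the root of its F statistic. Levels are mean ± SD of 3 libraries, and 3 counts is the limit taken for a count of 0, which covers counting error only. No replicate pair agreed within sampling noise, so each library counts once.

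The members and the gene lists were chosen with earlier results of these data known. Members called in either comparison and averaging 1 CPM or more in a group, and Irf7, Irf1, Isg15, Ifit3, Gbp2 and Igtp whatever their values, are given in every library. Of the other pathway genes, the 3 largest rises and falls per comparison are named, among those called and averaging 1 CPM or more in the higher group, with Ifnar1, Ifnar2, Ifngr1 and Ifngr2; a further gene of this rule is not reported here.

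Alternatives were 3 other scalings, a stricter filter and none, DESeq2 1.42.0, voom in limma 3.58.1, a fit of the groups compared alone, the replicate number as a block, an offset for each library's lowess trend of level with gene length (span 0.3), and leaving out each library. The fit was run on counts simulated from the vehicle libraries, with known fold changes put into aged vehicle. Only aged vehicle over young vehicle was scored, and no trend with gene length was simulated, so that run cannot speak for the comparison with GB. Shared 50-base stretches were counted in reference transcripts (GENCODE M21), and promoter windows came from RefSeq.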

Additional observations from a re-analysis of the deposited data

How the results depend on the processing

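With GB the same 11 genes were called higher and the same 5 lower under size factors of the DESeq2 kind, upper-quartile factors, both other filters, DESeq2, limma-voom, the replicate block and the fit of 6 libraries. The share of all genes called higher in these fits ran from 12.0% (no filter) to 28.9% (stricter filter). The share called lower ran from 17.5% to 30.7%, in the same order of filters. With library totals alone 4 were called higher and 11 lower, where 11.6% and 48.0% of all genes were. The median log2 fold change was then -0.36 for type I genes and -0.63 for GTPases. With upper-quartile factors the GTPase median was 0.03. Leaving out each library gave 10 to 12 members called higher and 1 to 6 lower, with 1 lower without aged vehicle replicate 3 and 3 lower without aged GB replicate 3. The median then ranged from 0.16 to 0.34 for type I genes and from -0.31 to 0.14 for GTPases. With age no member was called higher under any alternative run, where 2.06 to 7.15% of all genes were. Leaving out each library gave 0 to 1 called lower, where 2.02 to 5.32% of all genes were. That 1 gene, Ifi27l2a, was called lower by DESeq2, with the length offset, in the fit of 6 libraries and without aged GB replicate 1. Medians with age ranged from -0.11 to 0.09 for type I genes and from -0.30 (without aged vehicle replicate 3) to 0.10 for GTPases in these leave-outs.

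For the 17 members given in every library, 14 of 646 recomputed values changed sign, and none of these was called either way. Over all 41 members, 18 changed sign in at least 1 of 19 alternatives with GB and 16 with age, none of them called in the TMM-scaled fit, and 1 was called after the change: Ifi27 with GB, at -0.49 with the length offset (adjusted p = 0.00488) and -0.41 under library totals (adjusted p = 0.0104). With GB the 4 of the 14 were Gbp2 at 0.031 with upper-quartile factors and 3 leave-outs (without aged GB replicate 3, aged vehicle replicate 2 or aged vehicle replicate 3), its leave-outs ranging from -0.31 to 0.14. With age all 10 were leave-outs, of aged vehicle replicate 1 (Irf9), replicate 2 (Irf7 and Gbp2) or replicate 3 (Ifit1, Oas2, Bst2, Gbp2 and Gbp4) or of young vehicle replicate 1 (Gbp2) or 3 (Irf7). The leave-outs with age ranged from -0.15 to 0.034 for Irf7, -0.18 to 0.088 for Irf9, -0.13 to 0.37 for Ifit1, -0.030 to 0.46 for Oas2, -0.0089 to 0.19 for Bst2, -0.14 to 0.30 for Gbp2 and -0.18 to 0.26 for Gbp4. The cause was not tested. The deviations of same-numbered libraries of different groups were correlated at -0.028 to 0.057 over 9 pairs, and those of other pairs at -0.051 to 0.031 over 18, all too weak for the numbers to pair the samples. The replicate block gave 11 higher and 5 lower with GB, where 23.2% and 27.9% of all genes were. With age it gave 0 and 0, where 3.85% and 3.63% of all genes were. At 1 count worth 0.030 to 0.032 CPM in aged GB libraries, the values of Oas3, Oasl1, Mx1 and Mx2 rest on few counts, and Oasl1 (under library totals) and Oas3 (without aged GB replicate 2) were each called lower once, both at adjusted p = 0.0399.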
